A study of Mus musculus with 34 samples.

Results

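Newly made RNA of mouse liver, labelled in the living animal with ethynyl uridine (EU), was compared between 1 library from a Setd8 knockout (KO) and 1 library from wild type (WT). The genes compared were those with at least 20 reads over both EU libraries, 15131 of the 37583 gene identifiers counted. With 1 library a side no test between genotypes was possible, so each gene is given by its reads in both libraries, WT always first, and by a log2 ratio of KO over WT. That ratio is scaled to the library totals and centred on the median gene. Its 95% interval covers counting error only, and reads copied by PCR are not independent molecules.

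The WT library carried the genotype label Wild type, and the labels do not say whether it held a floxed allele or Cre. KO was labelled Setd8lox/lox-Alb-Cre, a floxed exon of Setd8 removed by Cre under the albumin promoter, which is active in hepatocytes. The labels do not say which other liver cells keep the gene. Both came from F1 mice (C57Bl6/CBA) aged 45 days that had received 25 mg of EU per kg by intraperitoneal injection 30 min before death. Nuclear RNA was biotinylated by click chemistry, captured and sequenced on an Ion Proton. The same study sequenced bromouridine run-on RNA (Br, 1 library a side), in which isolated nuclei extended their nascent transcripts for 3 min, and liver mRNA (3 libraries a side) of the same 2 genotypes without EU. The labels do not say how many animals stand behind a library, nor whether the numbered mRNA libraries came from separate animals, so that p-values from limma cover the spread of libraries, which may be technical.

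Setd8, now called Kmt5a, encodes the enzyme that places a single methyl group on lysine 20 of histone H4, a mark of compacted mitotic chromosomes and also of the bodies of active genes. EU is taken up and built into RNA in place of uridine, so captured nuclear RNA reports transcription during the labelling time together with early processing and decay. A run-on reports only polymerases already engaged on the template. The study's title places Kmt5a in the release of RNA polymerase II from promoter-proximal regions and in the control of liver metabolism.

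The EU libraries held 10833287 reads in WT and 5583983 in KO, and the Br libraries 3156055 and 2317840. A count of 0 allows up to 3 reads, which is 0.277 CPM (reads scaled to a common library total) in the EU WT library and 0.537 CPM in the KO library. Hepatocyte genes dominated both: Alb (albumin) had 244515 reads in WT and 92036 in KO, and its log2 ratio was -0.43. Apoa1, Ttr and the other plasma carriers gave a median log2 ratio of -0.19 over 37 members. Only 1 of 13 pancreas acinar, 1 of 13 neutrophil and 3 of 26 lymphocyte markers reached 20 reads. Identifiers without a symbol took 3.06% of the EU reads in WT and 7.16% in KO. Among the mRNA libraries WT replicate 3 stood apart, with 20077 genes above 0 against 24497 to 26247 in the others, and counts of mRNA calls in the lists are also given without it and without KO replicate 2, the libraries whose removal moved the calls most. Of all 16813 genes tested in mRNA, limma called 227 higher and 228 lower with all 6 libraries. Without WT replicate 3 it called 797 and 869, and without KO replicate 2 it called 13 and 15. In tissue, fewer cells of a type and less RNA per cell cannot be told apart.

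Kmt5a itself had 473 reads in the WT and 310 in the KO library of EU, a log2 ratio of 0.37 (interval 0.16 to 0.58), and its Br ratio was 0.27 (-0.15 to 0.69). Neither nascent measure was lower in the library labelled KO. In mRNA the 3 WT libraries held 593, 615 and 1076 (scaled values) and the 3 KO libraries 1199, 1040 and 1075 (limma adjusted p = 0.244). These are counts over the whole gene, which includes the exons outside the floxed one, so they do not check the deletion. Of 9 other genes of H4 lysine 20 methylation and its removal, 2 were at least 2-fold higher, none was 2-fold lower, and the median was 0.46. Among all genes compared 24.9% were higher and 23.2% lower. Trp53bp1, a reader of the dimethyl form, had a ratio of 1.02 and L3mbtl2 1.10.

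Over all 15131 genes the ratios were broad. At least 2-fold higher in KO were 3773 genes (24.9%) and at least 2-fold lower 3511 (23.2%), and the whole interval lay past 2-fold for 2734 genes (18.1%) and 2321 genes (15.3%). The quartiles were -0.90 and 1.00, against -0.40 and 0.41 in Br, where 7.49% of 15449 genes were 2-fold higher and 7.01% lower. A median gene had 261 EU reads over both libraries. When genes were put in 5 equal groups by their reads, the group with the most EU reads (1171 and above) still had quartiles 0.99 apart, with a median half-width of the counting interval of 0.13, and 11% of its genes were higher and 13.2% lower. The quartiles of the most deeply read Br group were 0.60 apart, with a half-width of 0.24. EU ratios spread beyond counting error in each group, and no replicate of the EU libraries exists to measure that spread between animals.

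**Figure D1:**
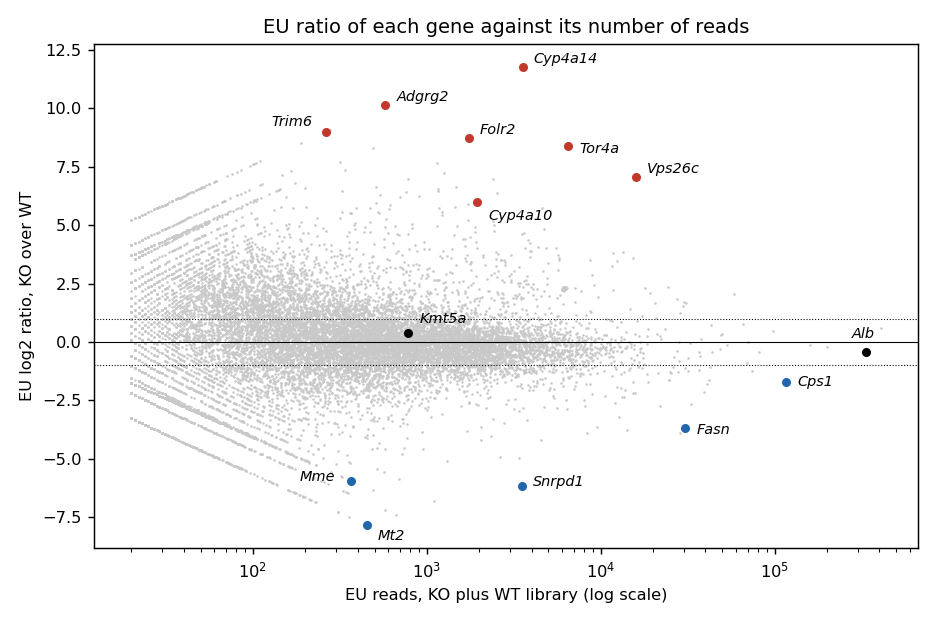
EU log2 ratio of KO over WT (vertical axis) against EU reads summed over both libraries (horizontal axis, log scale) for the 15131 genes compared. Dotted lines mark 2-fold, coloured points are named genes past 2-fold, and black points are Kmt5a and Alb, which lie within it. Straight rows of points at the left are genes with 0 to a few reads in 1 library.

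**Figure D2:**
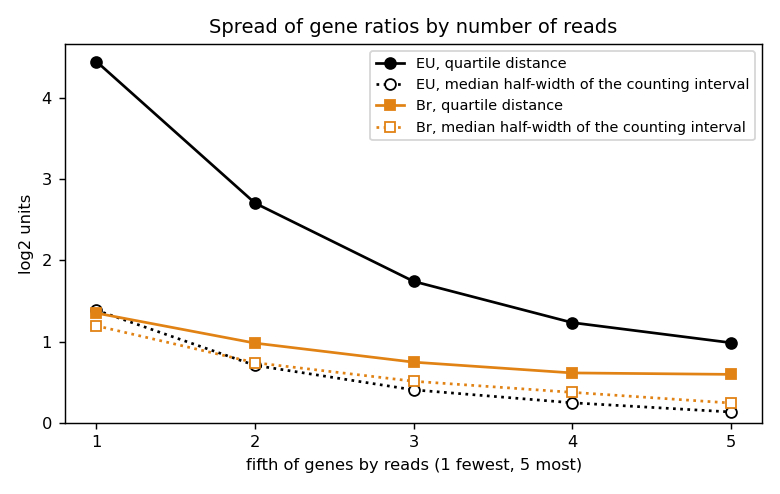
Distance between the quartiles of the log2 ratios (filled symbols) and median half-width of the 95% counting interval (open symbols) in 5 equal groups of genes ordered by reads, for EU and Br. The EU distance falls from 4.45 to 0.99 and stays above the Br distance, which falls from 1.35 to 0.60.

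Targets of the nuclear receptor PPAR alpha, which switches on fatty acid use in fasting, lay mostly higher in EU. Of 24 members compared, 20 were at least 2-fold higher in KO and 1 lower, with a median log2 ratio of 2.45, where 24.9% and 23.2% of all genes were. Summed over the list, CPM were 1560 in the WT library and 6783 in the KO library. The same members were less far apart in Br, with 7 of 23 at least 2-fold higher, none lower and a median of 0.68. In mRNA 4 of 24 rose by limma (7 without WT replicate 3, 2 without KO replicate 2). Of all 16813 genes tested, 227 rose (1.35%), against 797 without WT replicate 3 and 13 without KO replicate 2.

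Cyp4a14, a fatty acid omega-hydroxylase, had the largest EU ratio of all genes compared, with 2 reads in WT and 3564 in KO and a log2 ratio of 11.78 (interval 9.92 to 14.82). Its Br reads were 10 and 1447, and its mRNA values were 64, 90 and 58 in WT against 30918, 19945 and 24260 in KO (limma log2 8.45 ± 0.24 SE, adjusted p = 6.11e-06, groups without overlap). All 3 measures placed it higher in KO. The related Cyp4a10 had 59 and 1893 EU reads (5.98, interval 5.61 to 6.38) and Cyp4a31 39 and 618 (4.96, 4.49 to 5.47), with limma adjusted p = 0.0125 and 0.000693. With each mRNA library left out in turn, limma called Cyp4a14 and Cyp4a31 in 6 of 6 fits and Cyp4a10 in 3. Cyp4a genes resemble each other, so reads may be shared among them. Cyp4a12a, the male-biased member, was the 1 PPAR alpha target lower, with 2665 and 598 reads (-1.18).

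Lipid handling genes of this list had EU ratios that the other measures matched to varying degrees. Fabp1, the liver fatty acid binding protein, had 1625 reads in WT and 11811 in KO (3.84, interval 3.76 to 3.91), against 0.44 in Br and a limma log2 of -0.33 (adjusted p = 0.473). Plin2, a lipid droplet coat protein, had 874 and 2731 reads (2.62) and 0.49 in Br. Ucp2, a mitochondrial carrier, had 49 and 1181 (5.57), 0.81 in Br and 1.49 in mRNA (limma adjusted p = 0.0281). For Vnn1, a pantetheinase, both nascent measures were far apart, with 48 and 451 EU reads (4.21) and 2 and 66 Br reads (5.49, interval 3.58 to 8.57). Acot1, a thioesterase, had 3 and 171 EU reads (6.81, 5.24 to 9.10).

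Enzymes of fatty acid oxidation followed with smaller values. Of 28, 12 were at least 2-fold higher and 1 lower, with a median of 0.81, whereas in Br none of the 28 passed 2-fold in either direction (median 0.11) and in mRNA none was called by limma (1 fell without WT replicate 3). Cpt1a, which commits fatty acids to mitochondria, had 3331 and 2969 EU reads (0.81, interval 0.74 to 0.88) and 686 and 402 in Br (-0.32), opposite signs in the nascent methods. Acox2, which works on bile acid precursors and branched fatty acids, was the 1 member 2-fold lower (1691 and 247 reads, -1.80).

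Fatty acid synthesis lay on the other side. Of 24 members, 15 were at least 2-fold lower in KO and 1 higher, with a median log2 ratio of -1.64, and in Br 6 of 24 were 2-fold lower, none higher, and the median was -0.65. In mRNA 4 of 24 fell by limma (4 without WT replicate 3, 0 without KO replicate 2), where 1.36% of all genes did with all 6 libraries. Fasn, which encodes fatty acid synthase, had 29520 and 1153 EU reads (-3.70, interval -3.79 to -3.62), 2038 and 607 in Br (-1.30) and a limma log2 of -1.05 ± 0.18 SE (adjusted p = 0.029, called in 1 of 6 fits with a library left out). Srebf1, which encodes the factor that drives this pathway, had 9156 and 371 EU reads (-3.65), with -0.46 in Br and -1.69 in mRNA (limma adjusted p = 0.00938). These genes were lower in all 3 measures, and the EU difference was the widest.

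Acly, which makes cytosolic acetyl-CoA, had 8066 and 272 EU reads (-3.91), and Scd1, the main desaturase, 30632 and 2478 (-2.65). Acaca, acetyl-CoA carboxylase, had 4791 and 490 (-2.31). Thrsp, a lipogenic regulator, differed by about as much in each method: -2.29 in EU with 9572 and 993 reads, -2.85 in Br and -2.68 in mRNA (limma adjusted p = 0.027). Lpin1, a phosphatidate phosphatase, had -1.81 in EU and -2.26 in Br, while its mRNA values ran from 1345 to 17100 in WT and from 2090 to 13150 in KO and overlapped. Elovl1, an elongase of long saturated chains, was the 1 member 2-fold higher (676 and 1267 reads, 1.88).

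None of 26 genes of cholesterol synthesis and uptake was 2-fold higher in EU and 18 were 2-fold lower, with a median of -1.77. In Br 1 of 26 was 2-fold lower and the median was -0.20, and in mRNA 3 fell, 1 rose and the median was 0.0027 (7 and 2 without WT replicate 3, none without KO replicate 2). Insig1, the sterol sensor that holds this pathway back, had 12123 and 660 EU reads (-3.22, interval -3.34 to -3.11), -0.38 in Br and mRNA values of 3507, 3429 and 3975 against 1272, 1786 and 1905 (limma log2 -1.16 ± 0.21 SE, adjusted p = 0.033). Enzymes of the pathway reached very few KO reads: Fdps had 484 and 3 (-6.36, interval -8.64 to -4.80), Mvd 184 and 1 (-6.55, -11.86 to -4.05), and Mvk 119 and 0, at least 20.2-fold lower. Sqle, squalene epoxidase, had 940 and 69 EU reads (-2.79) but 137 and 112 in Br (0.16, -0.21 to 0.53). The factor gene Srebf2 differed by less than its counting error (754 and 380 reads, -0.01, -0.19 to 0.17).

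**Figure D3:**
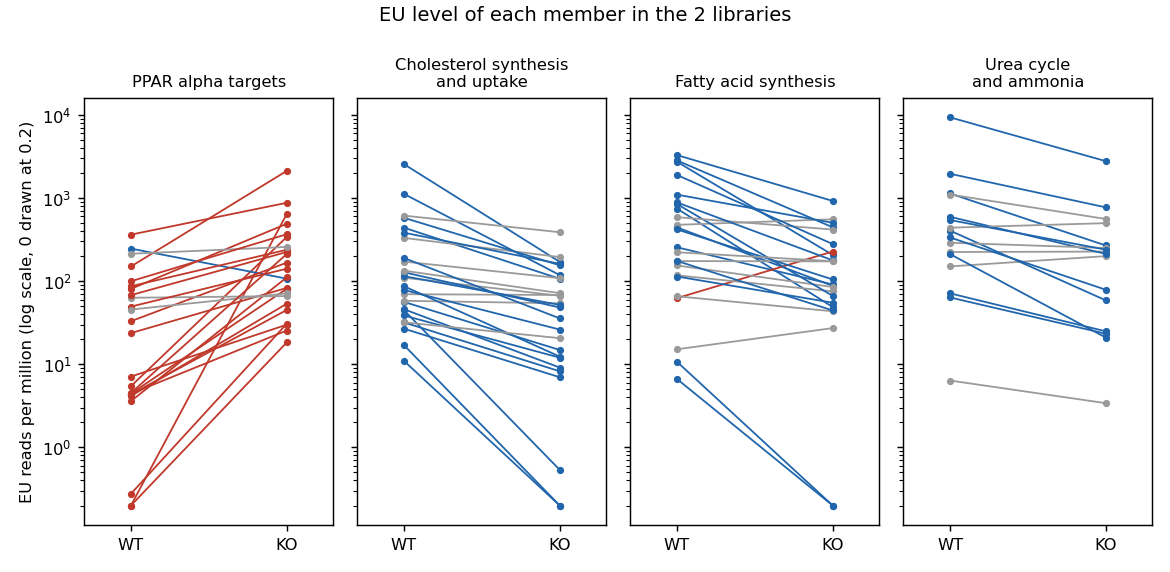
EU CPM (log scale, 0 drawn at 0.2) of each member of 4 lists in the WT and the KO library, joined by a line. Red lines are at least 2-fold higher in KO, blue lines at least 2-fold lower and grey lines lie between. In the PPAR alpha panel 20 of 24 lines are red, and in the cholesterol panel 18 of 26 are blue and none is red.

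Glucose use showed single large differences. Pklr, the liver pyruvate kinase, had 1764 and 143 EU reads (-2.65), -1.69 in Br and -1.62 in mRNA (limma adjusted p = 0.0189). The isoform gene of other tissues, Pkm, had 10 and 499 EU reads (6.62, 5.73 to 7.69), with 0.52 in Br (-0.15 to 1.19). Of 17 glycolytic genes 7 were 2-fold lower and 2 higher, and of 18 genes of gluconeogenesis and glycogen 5 and 5. Among all genes 23.2% were lower and 24.9% higher, and the 5 and 5 of 18 lay near those shares.

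Genes that dispose of amino acid nitrogen were lower in EU without an exception past 2-fold. Of 46 genes of amino acid breakdown 21 were at least 2-fold lower and none higher (median -0.98), and of 16 genes of the urea cycle and ammonia 10 and none (median -1.38). In Br 9 of 46 and 7 of 16 were 2-fold lower (medians -0.59 and -0.71), where 7.01% of all genes were. In mRNA none of these 62 genes fell, the medians were -0.24 and 0.03, and 1, Amt, rose. Without WT replicate 3 limma called 3 lower and 2 higher, and without KO replicate 2 none. Cps1, the entry enzyme of the urea cycle, had 101047 and 15491 EU reads (-1.73, interval -1.75 to -1.70), 6289 and 2052 in Br (-1.17), and mRNA values of 43909, 53289 and 40398 against 50292, 46637 and 77915. Tat, tyrosine aminotransferase, had 35044 and 3983 EU reads (-2.16), -1.70 in Br and a limma log2 of 0.67 (adjusted p = 0.492). For both genes the nascent libraries differed and the mRNA groups overlapped.

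Asl, which releases arginine, had 4386 and 328 EU reads (-2.77) and Got1, the cytosolic aspartate transaminase, 2291 and 117 (-3.31), with -1.18 and -1.86 in Br. Arg1, arginase, had 12265 and 1498 (-2.06), and Gldc, of the glycine cleavage system, 1977 and 80 (-3.65). Ass1 stood against the pattern, with 2425 and 1265 EU reads (0.04, -0.06 to 0.14) but 3970 and 809 in Br (-1.85). Glul, glutamine synthetase, which marks pericentral hepatocytes, had 0.20 in EU and 1.03 in Br. Of 18 genes of periportal hepatocytes, which share members with these lists, 11 were at least 2-fold lower and 0 higher (median -1.27). Of 22 pericentral genes 4 were lower and 3 higher (median 0.37), where 23.2% and 24.9% of all genes were. Br had 4 of 18 periportal genes lower and 1 higher, and 0 of 22 pericentral genes lower and 5 higher. Limma called 0 genes of either list in mRNA, where the medians were 0.009 and 0.36. Without WT replicate 3 it called 1 periportal gene higher and 0 lower, and 5 pericentral genes higher and 1 lower. The factor Hnf4a, which maintains hepatocyte genes, had 22986 and 4750 EU reads (-1.30), and -0.41 in Br.

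Mitosis genes also lay mostly higher. Of 30 compared, 24 were at least 2-fold higher and none lower, with a median of 2.35, and in Br 10 of 26 were higher, 1 lower, and the median was 0.85. In mRNA 5 of 30 rose by limma (8 without WT replicate 3, 1 without KO replicate 2) and the median was 1.97. Read numbers were low: 7 of the 30 had 100 or more EU reads, of which 6 were 2-fold higher, and the list summed to 218 CPM in WT and 934 CPM in KO. Top2a, topoisomerase 2 alpha, had 5 and 139 EU reads (5.77, interval 4.52 to 7.42) and 12 and 24 in Br (1.45, 0.39 to 2.58). Prc1, which bundles spindle microtubules, had 31 and 199 (3.66, 3.11 to 4.25) and a limma log2 of 2.36 in mRNA (adjusted p = 0.0368). Bub1b, of the spindle checkpoint, had 1 and 75 (7.21, 4.68 to 12.53), and Ccnb1, cyclin B1, 0 and 21, at least 13.8-fold higher. Kif23, a midbody kinesin, had the most reads and went opposite ways, with 1426 and 3299 in EU (2.19) and 223 and 73 in Br (-1.16). Ccnf, cyclin F, rose in mRNA (limma log2 2.24, adjusted p = 0.00674) with 257 and 120 EU reads (-0.12, -0.45 to 0.20).

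Promoters of mitosis genes are known for the cell cycle genes homology region, searched here as TTTGAA on both strands in the 250 bases before each RefSeq start. It was present for 8 of the 25 mitosis genes with a RefSeq promoter (32%), against 13.4% of 9726 compared genes and 18.3% of 27025 genes with one. The 4 of these 8 whose EU interval lay farthest from no change are printed 5′ to 3′ with each match in capitals, from RefSeq, GRCm38.p6: Top2a (chr11:99024190-99024439, minus strand), Prc1 (chr7:80294226-80294475, plus strand), Ect2 (chr3:27153855-27154104, minus strand) and Ncapg (chr5:45669675-45669924, plus strand). The others of the 8 were Cdk1 (12 and 24 EU reads), Kif11 (23 and 15), Ccnf (257 and 120) and Smc2 (66 and 17). Of these only Cdk1 was 2-fold higher in EU. A match in capitals is a run of letters and not a measured site.
Top2a: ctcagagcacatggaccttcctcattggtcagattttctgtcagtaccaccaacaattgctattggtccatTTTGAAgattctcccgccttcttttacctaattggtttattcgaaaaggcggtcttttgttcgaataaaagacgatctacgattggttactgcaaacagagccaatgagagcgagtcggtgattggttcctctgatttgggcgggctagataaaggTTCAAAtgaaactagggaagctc
Prc1: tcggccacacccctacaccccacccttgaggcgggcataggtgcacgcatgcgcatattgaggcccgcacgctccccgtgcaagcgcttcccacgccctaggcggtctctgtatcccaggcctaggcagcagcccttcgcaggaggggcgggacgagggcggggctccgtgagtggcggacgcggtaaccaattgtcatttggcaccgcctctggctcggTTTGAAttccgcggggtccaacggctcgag
Ect2: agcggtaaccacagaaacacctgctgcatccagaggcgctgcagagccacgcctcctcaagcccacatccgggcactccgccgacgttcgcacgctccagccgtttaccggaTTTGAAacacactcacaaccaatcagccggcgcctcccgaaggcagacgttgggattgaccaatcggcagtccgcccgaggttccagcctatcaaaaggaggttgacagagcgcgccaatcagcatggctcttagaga
Ncapg: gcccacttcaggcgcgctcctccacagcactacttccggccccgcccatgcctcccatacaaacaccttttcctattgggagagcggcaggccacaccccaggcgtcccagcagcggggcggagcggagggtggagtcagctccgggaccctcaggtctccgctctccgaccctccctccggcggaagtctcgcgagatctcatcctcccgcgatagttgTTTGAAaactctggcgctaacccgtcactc
In Prc1 and Ncapg the match began 30 bases before the start. Ect2, a cytokinesis factor, had 100 and 395 EU reads (2.96) and Ncapg, of condensin, 11 and 59 (3.40). Over the 301 named genes with a promoter TTTGAA was present in 14.6%, CACGTG in 5.98%, TGACGTCA in 1.99%, TTATGTAA in 0.997% and TGACNNNGC in 16.9%, against 18.3%, 6.86%, 1.77%, 0.977% and 11.5% of all RefSeq promoters of this length, both strands searched each time. Among the compared genes the shares were 13.4%, 9.68%, 2.93%, 0.679% and 13.6%, so that for TTTGAA and TGACGTCA the direction depended on the background. The sterol element TCACNCCAC, chosen after the values were seen, was found in this window for 0 of 18 cholesterol genes and in 1.22% of all promoters.

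Targets of p53, the damage response factor, were mixed in EU. Of 29, 10 were at least 2-fold higher and 4 lower (median 0.52), where 24.9% and 23.2% of all genes were. In Br 5 of 27 were 2-fold higher and 1 lower (median 0.46), where 7.49% and 7.01% of all genes were. In mRNA 3 of 29 rose, 0 fell and the median was 0.71. Without WT replicate 3 limma called 5 higher and 1 lower, and without KO replicate 2 it called 0. Cdkn1a, the cell cycle inhibitor p21, had 0 and 96 EU reads, at least 62.95-fold higher, 121 and 469 in Br (2.40, 2.11 to 2.70), and mRNA values of 70, 21 and 16 against 2210, 1443 and 518 (limma log2 5.31 ± 0.65 SE, adjusted p = 0.0108, called in 4 of 6 fits with a library left out). Phlda3 had 0 and 25 EU reads, at least 16.4-fold higher, and 11 and 50 in Br. Mdm2, which degrades p53, had 1248 and 1022 (0.69), and Bax, which permeabilises mitochondria, was lower in EU with 40 and 6 reads (-1.76, -3.29 to -0.51) and higher in Br (0.96, 0.56 to 1.36).

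Immediate early genes, which answer signals within minutes, were higher in EU: 12 of 19 at least 2-fold, 1 lower, median 1.92. Br and mRNA did not show this, with 1 of 18 2-fold higher and a median of 0.28 in Br, and a median of -0.56 with 1 fall and no rise in mRNA (no fall without KO replicate 2). Ier3 had 0 and 106 reads, at least 69.5-fold higher. Atf3 had 4 and 60 reads (4.88, 3.45 to 6.81), Myc 62 and 215 (2.77) and Klf6 213 and 625 (2.53). Egr1 differed less, with 294 and 188 (0.33, 0.06 to 0.60), and Fosb was lower, with 19 and 2 (-2.27, -5.42 to -0.22). Jun had 38 and 42 reads (1.12, 0.45 to 1.79) and 0.99 in Br, and fell in mRNA (limma log2 -1.12, adjusted p = 0.0358).

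Markers of cells other than hepatocytes moved in part. Of 26 stellate cell and fibroblast markers 20 were at least 2-fold higher and 3 lower in EU (median 2.35). Over all 29 markers found, CPM summed to 386 in WT and 2201 in KO. In Br 9 of 23 were higher, none lower (median 0.79). Col3a1, a fibrillar collagen, had 529 and 3396 EU reads (3.66) and 91 and 192 in Br (1.53). Postn, periostin, had 50 and 621 (4.61) and rose in mRNA (limma log2 1.34, adjusted p = 0.048), and Acta2, smooth muscle actin, had 113 and 920 (4.00). Lrat, which stores retinol in quiescent stellate cells, was lower, with 125 and 26 reads (-1.29).

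Of 19 macrophage markers 10 were 2-fold higher and 3 lower (median 1.74). Over all 27 markers found, CPM summed to 372 in WT and 1144 in KO. Most of the KO sum came from C1qb (59 and 2461 reads, 6.36) and Folr2 (8 and 1744, 8.74). Of the 17 other markers compared 8 were 2-fold higher and 3 lower (median 0.17), where 24.9% and 23.2% of all genes were. These 17 summed to 361 CPM in WT and 387 CPM in KO, with the most reads in Slc40a1 (2669 and 953). Markers of resident Kupffer cells differed among themselves: Vsig4 (36 and 7, -1.39) and Clec4f (97 and 19, -1.38) were lower, Cd5l (19 and 39, 2.01) was higher, and the intervals of Timd4 (23 and 10, -0.23) and Cd163 (139 and 78, 0.14) included no change. Of 25 endothelial markers 8 were 2-fold higher and 4 lower, where 24.9% and 23.2% of all genes were. Of 12 bile duct and progenitor markers 7 were higher and 1 lower (median 2.19), and in Br 5 of 11 and 1 (median 0.93). Only 6 of these 12 had 100 or more EU reads, of which 1 was higher and 1 lower. The 3 lymphocyte markers compared were all 2-fold higher (median 2.41), as was the 1 neutrophil marker compared (4.68). Reads were few: the lymphocyte list summed to 7.2 CPM in WT and 20.2 CPM in KO, and the neutrophil list to 5.54 and 8.6 CPM. The part of a changed cell makeup in these values was not tested.

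Blood genes stood apart within 1 list. The globin genes had many more EU reads in KO: Hbb-bs 523 and 4307 (4.02) and Hba-a1 188 and 4572 (5.58), the paired gene copies sharing sequence and so perhaps reads. In Br the values were -0.56 and 0.33, and in mRNA 0.11 and 0.76 with limma adjusted p = 0.89 and 0.247. Alas2, the heme synthesis enzyme of red cell precursors, went the other way with 342 and 2 EU reads (-6.44, -9.49 to -4.58), as did their factor Klf1 with 55 and 1 (-4.80, -10.13 to -2.27).

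Of 36 drug-metabolising cytochrome P450 genes 16 were at least 2-fold lower and 3 higher in EU (median -0.93). In Br 4 of 34 were lower and 5 higher (median -0.04), where 7.01% and 7.49% of all genes were. The list also held their electron donor Por, with 3297 and 6389 EU reads (1.93) but -1.21 in Br, and the nuclear receptor genes Nr1i2 (-0.79) and Nr1i3 (1.09). Limma called 5 of the 39 members of the whole list higher in mRNA and 1 lower, with a median of 0.08. Without WT replicate 3 these were 9 and 2, and without KO replicate 2 they were 2 and 0. Cyp2c29 had 14200 and 1581 EU reads (-2.19) but 544 and 537 in Br (0.43). Cyp3a11 was level in EU, with 11057 and 5672 reads (0.01), and higher in Br with 828 and 1950 (1.69). Cyp2b9, a female-biased gene, had 9 and 153 EU reads (5.06) and mRNA values of 68, 37 and 40 against 1154, 831 and 506 (limma adjusted p = 0.00545, called with each library left out). Hsd3b5, a male-biased steroid enzyme, had 2593 and 44 (-4.91), -1.25 in Br, and did not pass in mRNA (limma adjusted p = 0.0562). Over the lists, 10 of 22 male-biased genes were 2-fold lower and 1 higher, and 8 of 18 female-biased genes were lower and 6 higher. Among all genes 23.2% were lower and 24.9% higher. Xist had 76 and 5 EU reads, and Y-linked Ddx3y 3506 and 1728, so that both libraries held Y-linked RNA. The labels give no sex.

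Of 30 acute phase genes 11 were 2-fold lower and 4 higher (median -0.80), with Saa2, serum amyloid A2, at 2003 and 56 reads (-4.18). Hamp, the iron hormone hepcidin, was the member farthest above, with 88 and 876 (4.29) and -0.34 in Br. The neighbouring metallothionein genes parted: Mt2 had 452 reads and 1 (-7.84, -13.15 to -5.36) and Mt1 389 and 410 (1.05), whereas both were lower in Br (-2.14 and -0.62). Of 25 genes of the unfolded protein response 7 were lower and 1 higher (median -0.73), and of 16 core clock genes 4 and 2 (median -0.53). Both shares of lower genes were near the 23.2% of all genes. In Br 7 of the 16 clock genes were lower and none higher (median -0.80), where 7.01% of all genes were lower. Per3 had -0.58 in EU, -2.06 in Br and -1.92 in mRNA (limma adjusted p = 0.00938).

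**Figure D4:**
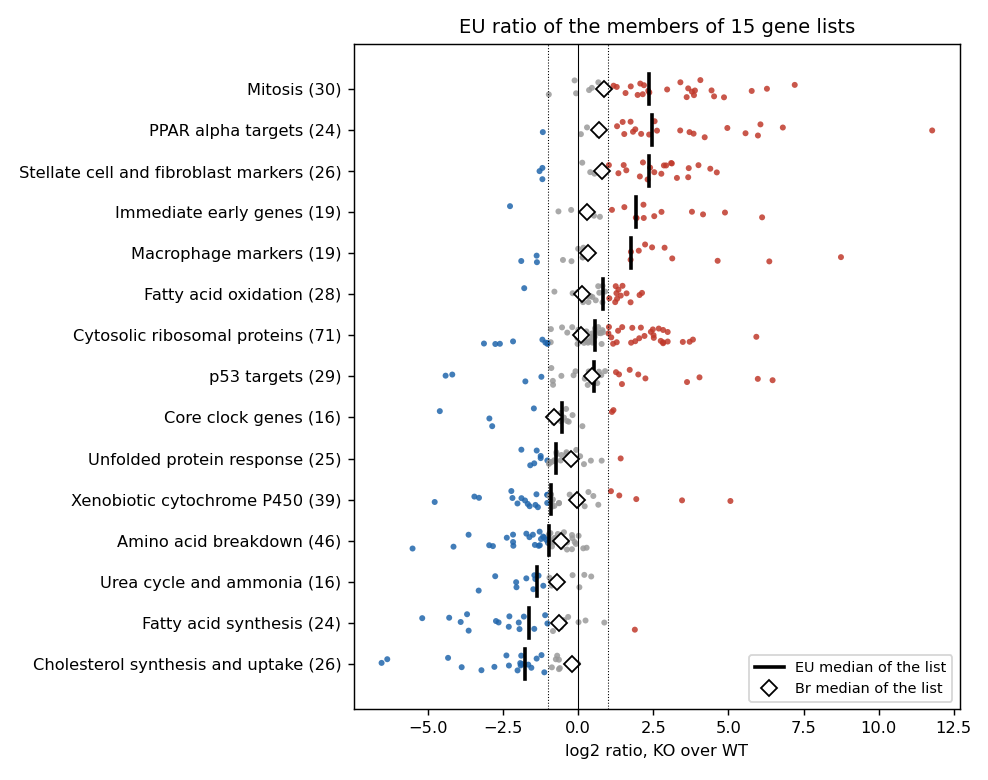
EU log2 ratio of KO over WT (horizontal axis) of the members of 15 gene lists, 1 point a gene, with the number compared in brackets. The bar is the EU median and the open diamond the Br median of the list, and dotted lines mark 2-fold. EU medians run from 2.45 for PPAR alpha targets to -1.77 for cholesterol genes, and the Br medians lie between 0.85 and -0.80.

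Pausing and elongation factors of RNA polymerase II had a median of -0.17. Of 34, 3 were at least 2-fold higher and 7 lower, where 24.9% and 23.2% of all genes were. The 3 higher were Nelfe (342 and 359 reads), Mllt3 (136 and 171) and Gtf2f1 (93 and 110). Ctr9 and Leo1, both of the PAF1 complex, were lower in EU, with 707 and 74 reads (-2.28) and 110 and 11 (-2.35). Paf1 (265 and 98) and Cdc73 (1774 and 815) of that complex lay within 2-fold. Ctr9 and Leo1 were not lower in Br, at 0.76 and 0.62, and Leo1 rose in mRNA (limma log2 1.47, adjusted p = 0.0317). Aff1, a scaffold of the super elongation complex, had 2054 and 279 EU reads (-1.90), and 0.05 in Br. Supt5, of the pausing factor DSIF, had 1109 and 249 (-1.18). Cdk9, the kinase of pause release, had 333 and 204 (0.27, 0.01 to 0.53).

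Small nuclear and nucleolar RNAs took a larger share of the KO library. Small nucleolar and Cajal body RNAs held 0.278% of EU reads in WT (exact 95% interval 0.275 to 0.281) and 1.84% in KO (1.83 to 1.85), and 175 of 204 were at least 2-fold higher against 8 lower. In Br their shares were 2.06% and 3.13%, with 45 of 199 higher and 10 lower. Small nuclear RNAs went from 0.0911% to 0.441% in EU and from 2.30% to 2.04% in Br. Snord55, a guide of ribosomal RNA methylation, had 2185 and 13242 EU reads and 6524 and 10848 in Br (1.18). Protein-coding genes that hold a small RNA on their strand showed no such shift: the EU median was -0.06 over 1056 of them and -0.08 over 10775 others. Among 71 ribosomal protein genes 28 were 2-fold higher and 8 lower (median 0.56), among them Rps12 with 54 and 1670 reads (5.93), and in Br 2 and 1 (median 0.09). Protein-coding genes other than histone and ribosomal protein genes made up 91.76% of reads in WT and 83.78% in KO. The part of RNA size or capture in these shares was not tested.

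Several of the genes farthest from no change in EU lay near it in the other measures. Vps26c, a subunit of the endosomal commander complex, had 229 and 15703 EU reads (7.08, interval 6.89 to 7.27) but 133 and 102 in Br (0.07), and a limma log2 of 0.26 (adjusted p = 0.466). The transcript 1110028F11Rik, placed on another chromosome in the later annotation, had nearly the same counts, 240 and 15800. Tor4a, a torsin ATPase, had 38 and 6482 (8.39) and 0.43 in Br. On the lower side, Snrpd1, a core spliceosome protein, had 3499 and 25 (-6.15, -6.78 to -5.59) but 37 and 36 in Br (0.41, -0.29 to 1.11). Dhrs3, a retinal reductase, had 1090 and 5 (-6.79), and -0.36 in Br. Mme, the peptidase neprilysin, was lower in EU, with 364 and 0 reads, at least 61.7-fold, and in mRNA, with 210, 283 and 609 against 13, 7 and 12 (limma log2 -4.87 ± 0.45 SE, adjusted p = 0.00545, called with each library left out).

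Set against Br over all genes, 2-fold calls of the same direction were more frequent than opposite ones, except among the most deeply read genes higher in EU. Of 2799 genes at least 2-fold higher in EU with 20 Br reads, 12.8% were 2-fold higher in Br and 6.90% lower, where 6.47% and 5.54% of the 13009 genes in both were. Of 2885 genes lower in EU, 9.64% were lower in Br and 6.38% higher. Among genes with 1000 or more EU reads, 12.5% of 449 lower in EU were lower in Br and 0.891% higher, and 7.38% of 366 higher in EU were higher in Br and 8.2% lower, although 63.9% of these 366 lay above 0 in Br. Of all 3394 genes at this depth with 20 Br reads, 1.709% were higher in Br and 4.125% lower. EU and Br share no library. Limma called 3.23% of 2724 EU-higher genes higher in mRNA (all: 1.48%) and 2.69% of 3117 EU-lower genes lower (all: 1.38%).

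In EU and Br alike, 359 genes were 2-fold higher and 278 lower. Over all compared genes tested in mRNA, limma called 1.48% higher and 1.38% lower. In EU, Br and mRNA alike, 28 genes were higher and 26 lower, 1 was higher in both nascent methods and called lower in mRNA, and none the reverse. Without WT replicate 3 these became 46 and 49, with 8 and 7 in opposition, and without KO replicate 2 they became 3 and 3. Beside the Cyp4a genes and Cdkn1a, the higher ones included Slc25a4, the adenine nucleotide carrier of heart and muscle, with 25 and 1138 EU reads (6.49), 32 and 62 in Br (1.40) and 1.40 in mRNA (limma adjusted p = 0.0364), and Gtse1, a G2 and S phase protein (4.87, 1.29 and 2.65, limma adjusted p = 0.0392). Fbxo44, a ubiquitin ligase subunit, had 2 and 145 EU reads (7.16, 5.28 to 10.22). Beside Fasn and Mt2, the lower ones included Pqlc2, a lysosomal amino acid exporter, with 724 and 16 EU reads (-4.52), -1.48 in Br and -1.74 in mRNA (limma adjusted p = 0.0156), and Dpy19l3, a mannosyltransferase, with -3.51, -1.18 and -3.34 (limma adjusted p = 0.0117).

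Other genes went opposite ways in EU and mRNA. Limma called 38 EU-lower genes higher in mRNA (1.22%, against 1.48% of all compared genes) and 16 EU-higher genes lower (0.587%, against 1.38%). With all 6 libraries opposite calls were thus no more frequent than over all genes. Without WT replicate 3 they numbered 109 (3.50%, against 4.85% of all compared genes) and 100 (3.67%, against 4.31%). Without KO replicate 2 they numbered 3 (0.096%, against 0.090%) and 2 (0.073%, against 0.090%). Cyp17a1, a steroid hydroxylase, had 159 and 2 EU reads (-5.34, -8.40 to -3.46), -0.70 in Br, and mRNA values of 12, 29 and 17 against 246, 429 and 460 (limma log2 4.26 ± 0.40 SE, adjusted p = 0.00545, called with each library left out). Lcn2, lipocalin 2, had 187 and 7 EU reads (-3.76, -5.10 to -2.69) and mRNA values of 103, 80 and 44 against 1572, 845 and 405 (limma log2 3.49 ± 0.50 SE, adjusted p = 0.0168). Arntl, the clock activator, had 43 and 3 (-2.87, -5.20 to -1.22) against 3.08 in mRNA (limma adjusted p = 0.0199), and Amt, of the glycine cleavage system, 140 and 4 (-4.15) against 1.65 (limma adjusted p = 0.0108). In each of these genes the 3 KO mRNA libraries lay above the 3 WT libraries, as they did for 13.2% of all genes tested. With each mRNA library left out in turn, limma called Srebf1 and Dpy19l3 in 5 of 6 fits, Pqlc2 and Amt in 4, Pklr, Slc25a4, Gtse1 and Arntl in 2 and Postn, Leo1 and Mt2 in 1.

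**Figure D5:**
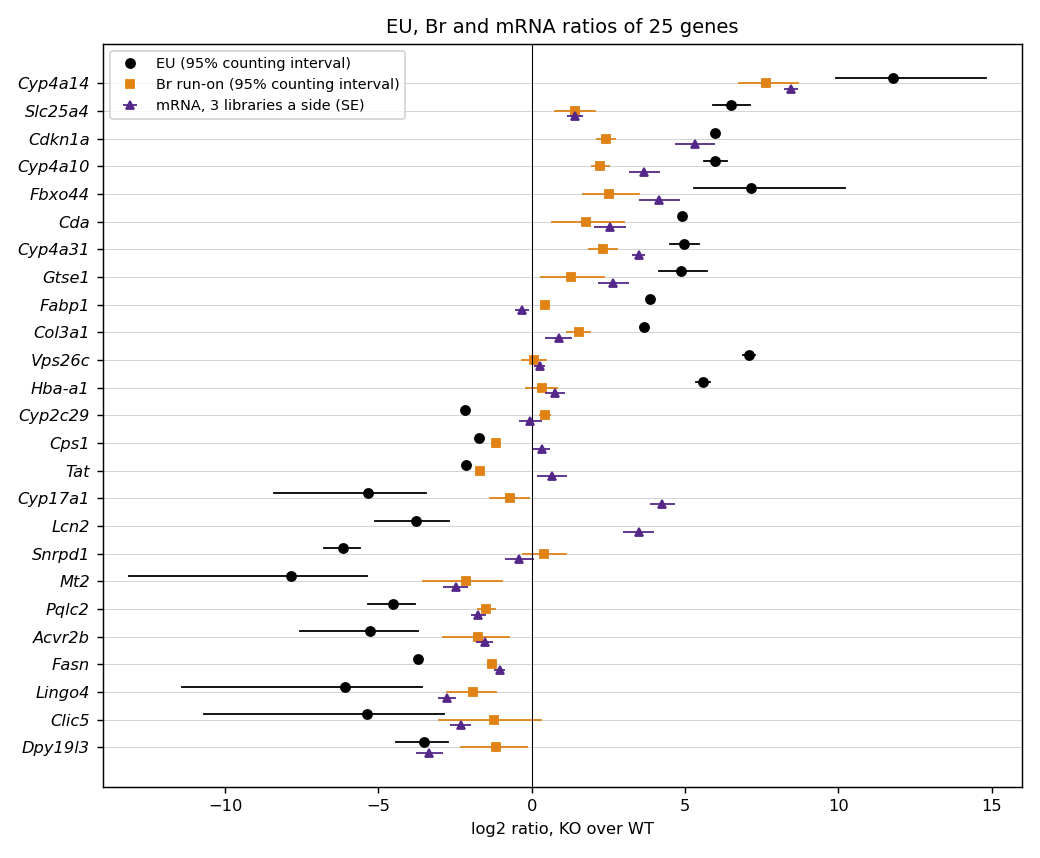
Log2 ratio of KO over WT of 25 genes in EU (circles), Br (squares) and mRNA (triangles, limma estimate). Lines are 95% counting intervals for EU and Br and the standard error for mRNA, and an interval open to one side is not drawn. The first 8 and the last 7 genes point the same way in all 3 measures, and Cyp17a1 and Lcn2 point opposite ways in EU and mRNA.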

How the data were processed

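EU and Br libraries were deposited as read counts per gene with RPKM beside them, which the authors made with a counter and annotation not given in the sources used here. All Br counts were even and were divided by 2. The deposited mRNA values are scores, read numbers the authors scaled between libraries. Per the submitters' processing notes, the tools were TopHat2, Bowtie2, Cufflinks, DESeq, MACS2 and SICER and the build mm9. Later GENCODE and RefSeq tables gave names, for 32860 of 37583 identifiers. GENCODE also gave the RNA classes, chromosomes, strands and spans of genes, and RefSeq the promoter sequences. Both are of a later build than mm9, so classes and small RNA hosts do not rest on the annotation behind the counts.

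EU and Br ratios were scaled to library totals and centred on the median gene, over genes with at least 20 reads, with exact 95% binomial intervals. A count of 0 was set to 3 reads and the fold given as a bound. Because the mRNA values are scaled, limma 3.58.1 (R 4.3.3) was fitted on log2(value + 1) for genes at 10 or more in at least 3 libraries, with Benjamini-Hochberg adjustment at 0.05, in place of a count model, and was tested on simulated data. The RPKM served as an alternative, as did TMM factors (edgeR 4.0.16). Python 3.11.15 was used for the rest.

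Genes and lists (56 lists, 1482 symbols, 1146 genes compared) were chosen with earlier results of these data known. Named were Setd8, the 12 largest rises and 12 largest falls by the interval bound nearest to no change, up to 4 members a list and direction whose interval excluded no change, up to 8 genes a direction alike in all 3 measures, and the sex-linked genes. Other genes in the text were chosen after their values were seen. For those, mRNA calls were not followed with libraries left out. Chromatin and input samples of the study (24) were left aside. Some genes that the rule names are not reported here.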

Additional observations from a re-analysis of the deposited data

How the results depend on the processing

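Without a second EU library no replicate could be left out of the EU values, and counts of genes followed the read minimum. Genes at least 2-fold higher numbered 3773, against 2246 with the deposited RPKM, 2042 at 100 reads and 7636 at 1 read, and those lower 3511, against 2020, 1735 and 5725. As shares of 15131, 10492, 10539 and 26487 genes, the higher ones were 24.94%, 21.41%, 19.38% and 28.83%. The lower ones were 23.2%, 19.25%, 16.46% and 21.61%. With the whole interval past 2-fold, 2734 and 2321 genes became 1539 and 1198 at 100 reads. Fewer genes were compared, and the shares fell too, from 18.07% to 14.6% and from 15.34% to 11.37%. TMM factors moved the median of all genes to -0.12, the share of higher among 2-fold genes from 51.8% to 47.64%, and the sign of the medians of 4 lists, DNA replication, histone, liver endothelial and fetal liver genes. At 1 read that share was 57.15%. No named gene whose counting interval excluded no change turned its sign under the alternatives run. Kdm6a (0.0024) did under total scaling (-0.018) and TMM (-0.12). In mRNA, limma called 227 genes higher and 228 lower. Leaving out 1 library gave 13 to 797 higher and 15 to 869 lower, and shares of 0.1836% to 9.068% of EU-higher and 0.1925% to 7.122% of EU-lower genes, lowest without KO replicate 2 and highest without WT replicate 3. The numbers did not pair the mRNA libraries (correlations of same-numbered deviations 0.41, -0.24 and 0.20). With the replicate block 500 genes were higher and 514 lower, and the shares were 6.645% and 6.128% in place of 3.231% and 2.695%. Count models were not run on the scaled mRNA values.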

Other observations

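Of 16 heat shock genes, 4 were at least 2-fold lower in EU and none higher, near the 23.2% of all genes that were lower (median -0.51), and Hspe1 (69 and 67 reads, 0.93) and Dnajb1 (328 and 250, 0.58) lay above 0 with their intervals. In Br 5 of 16 were 2-fold lower, none higher, and all 16 lay below 0 (median -0.63). In mRNA the median was 0.08 and limma called none. Targets of NRF2, the factor of the oxidant response, had an EU median of 0.25 over 15 members, and 13 of 14 lay above 0 in Br (4 at least 2-fold). Of the 15, 5 rose in mRNA by limma (5 without WT replicate 3, 1 without KO replicate 2), where 1.35% of all genes did with all 6 libraries. Interferon response genes parted between the nascent methods, with 11 of 27 above 0 in EU and 25 of 27 in Br.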
